A study of Mus musculus with 12 samples.

Results

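The genes described here are 34 interferon-stimulated genes of the mouse that lie outside the main antiviral effector families, chosen by name and set out by their basal level and by their spread between libraries. All 34 were found among the 54532 genes counted in each file, and all 34 passed the filter on low counts. RNA was counted in 12 libraries of L929 cells, an established mouse fibroblast line, with 2 libraries under each of 6 labels. The labels are HT-DNA, hpRNA, G3-YSD and HSV, each described as a transfection, cGAMP, described as a stimulation, and mock, described as without treatment. RNA was prepared 6 hours after transfection in all of them, and the labels do not say whether mock cells received a transfection reagent. cGAMP is the cyclic dinucleotide that cGAS makes when it meets DNA, and the remaining abbreviations keep the spelling of the labels. The digit that ends a title was read as a library number. For HSV the same digit could name a virus type, which the labels do not settle.

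Interferon-stimulated genes are switched on when type I interferon binds its receptor and the kinases Jak1 and Tyk2 activate transcription factors that bind a response element in gene promoters. Some of these genes are also switched on by Irf3 without interferon. Fibroblasts respond to nucleic acid in the cytoplasm by making interferon beta, which acts back on the same cells. The 34 genes code for RNA helicases and nucleases (Ddx60, Helz2, Znfx1, Mov10, Isg20, Pnpt1, N4bp1), the RNA-editing enzyme Adar, surface and secreted proteins (Ly6e, Cd274, Lgals9, Lgals3bp), signalling partners (Azi2, Nmi, Ifi35), chromatin proteins (Setdb2 and the Phf11 genes) and enzymes of nucleotide metabolism (Nampt, Nt5c3), among others.

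The response element reads GAAA, then 2 bases of any kind, then GAAA, and the promoters of the genes were read for it on both strands, in a window of 250 bases before to 50 bases after each RefSeq start site (GRCm38.p6, the assembly of mm10). RefSeq windows were found for 30 of the 34 genes, and 8 of the 30 (26.7%) held the letters in at least 1 window, against 1079 of 27025 genes (3.99%) in the whole table. A gene can have several windows. Counted by window, 8 of 46 held the letters, against 1131 of 32851 (3.44%). Overlapping matches were each counted. By spread between libraries the motif was in 2 of 10 genes with a wide spread, 4 of 13 with a middle one, 2 of 6 with a modest one and 0 of 1 with a narrow one. The 8 genes with the motif are Ddx60, Lgals9, Mitd1, Ogfr, Phf11b, Rbm43, Shisa5 and Tdrd7. The 250 bases before the start are shown for Ddx60, a gene with 2 matches and an 1160-fold range between libraries, and for Phf11b, with 1 match in the Phf11 gene cluster. Capitals mark the motif. Ddx60 lies on the plus strand at chr8:61927837-61928086 and has its matches at positions -53 and -19 from the start, and Phf11b lies on the minus strand at chr14:59341331-59341580 with a match at position -50.
Ddx60: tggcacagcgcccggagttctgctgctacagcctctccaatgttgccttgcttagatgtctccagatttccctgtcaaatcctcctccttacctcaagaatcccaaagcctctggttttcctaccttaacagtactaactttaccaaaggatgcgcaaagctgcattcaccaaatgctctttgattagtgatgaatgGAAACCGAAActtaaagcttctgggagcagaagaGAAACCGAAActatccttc
Phf11b: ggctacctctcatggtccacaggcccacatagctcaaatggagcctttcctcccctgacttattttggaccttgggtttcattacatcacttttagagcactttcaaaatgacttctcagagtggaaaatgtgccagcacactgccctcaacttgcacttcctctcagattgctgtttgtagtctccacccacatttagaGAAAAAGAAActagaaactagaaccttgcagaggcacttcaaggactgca
For the other genes with the motif, 30 bases around a match are shown, 5′ to 3′ on the strand of the gene, so that TTTC repeated in capitals is the motif read from the other strand. They are Lgals9 (minus strand, chr11:78984960-78984989), Mitd1 (minus, chr1:37890629-37890658), Ogfr (plus, chr2:180589427-180589456), Rbm43 (minus, chr2:51935368-51935397), Shisa5 (plus, chr9:109054886-109054915) and Tdrd7 (plus, chr4:45972096-45972125).
Lgals9: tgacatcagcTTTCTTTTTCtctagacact
Mitd1: cctccaactcGAAACAGAAAgaaagtcatt
Ogfr: gcttcctcctcTTTCACTTTCctttccgcg
Rbm43: tatctcccaaTTTCAGTTTCTATTTCttta
Shisa5: gataagattcgaTTTCCTTTTCtttgaaag
Tdrd7: gaactttgtgGAAAGAGAAAtaaatccaca
In Rbm43 a pair of matches overlaps. The Rbm43, Shisa5 and Tdrd7 matches lie at 1 of several annotated starts. A match is a run of letters, and binding was not measured.

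Total counts per library lay between 12650790 and 18912400, and the 34 genes together made up 0.18% to 1.4% of the TMM-scaled counts. TMM is edgeR's scaling between libraries. Over the 34 genes the libraries did not group by label. Each library was closest to a library of another label with the same digit, at a mean absolute log2 difference of 0.0508 for G3-YSD 1 and HSV 1 up to 0.146 for hpRNA 2 and mock 2. The 2 libraries of a label lay 1.12 apart under cGAMP, 1.15 under HT-DNA, 1.92 under hpRNA, 3.2 under G3-YSD, 3.22 under HSV and 2.04 under mock. Over all genes, the squared difference between 2 libraries was set against what counting error alone gives, taking the median of the genes that had 100 or more counts summed over both. This ratio was 43.7 to 68.3 between a G3-YSD or HSV library and any of the other 8, and 1.55 to 13.0 among those 8. It was largest between G3-YSD and HSV libraries of different digits, at 82.6 for G3-YSD 1 and 2 and 76.3 for HSV 1 and 2. At the same digit it was 2.03 for G3-YSD 1 and HSV 1 and 1.41 for G3-YSD 2 and HSV 2. G3-YSD 1 and 2 had counts for 26496 and 23997 genes and HSV 1 and 2 for 26241 and 23909, against 21635 to 22550 in the other 8, and the part of this gap in the results was not tested. Groups are named by their labels, every library is given, and no library was moved. Whether titles were exchanged between libraries was not tested and the labels do not settle it, so means and fold changes by label hold only if the titles are right. The source of the cells is worded in another way for cGAMP, G3-YSD and HSV than for HT-DNA, hpRNA and mock, and whatever that wording stands for cannot be told apart from the treatment in comparisons of the first 3 with mock. Of 12 fibroblast markers, Thy1, Lum and Postn were below 0.5 CPM in every library and Dcn had 0 counts in all. Their sum was 2785 CPM for G3-YSD 1, 4214 for G3-YSD 2, 2611 for HSV 1 and 4123 for HSV 2, against 3076 to 3393 CPM in the other libraries. Of 16 markers of other cell types, Cdh5, Cd3e, Krt18 and Epcam were below 0.5 CPM throughout, and the 16 summed to 94.95 to 132 CPM. Of the 16, 10 were tested and 0 were called in any comparison, with a median log2 fold change of 0.85 in G3-YSD and 0.92 in HSV, against -0.06 in HT-DNA, 0.18 in hpRNA and 0.02 in cGAMP. Pecam1, an endothelial marker singled out after its values were seen, had 8 and 38 counts with G3-YSD and 10 and 42 with HSV, against 3 to 8 in the other libraries. Krt8, an epithelial marker, had 9 and 26 counts with G3-YSD and 8 and 48 with HSV, against 3 to 8. Cdh1, also epithelial, was instead higher in G3-YSD 1 and HSV 1, with 11 counts in each. Cdh5, a second endothelial marker, had 0 to 3 counts throughout. The 8 fibroblast markers tested had medians of 0.27 in G3-YSD and 0.24 in HSV, and 0 were called. The part of these shifts in the results was not tested.

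Levels are given in CPM, TMM-scaled counts relative to the library total. Basal level means the average of hpRNA 1 and mock 1, and between genes it is compared per kb of exon. Where 2 values stand for a label, the first is its library 1.

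The 34 genes together were highest in G3-YSD 1 and HSV 1 and lowest in mock 1, hpRNA 1, HSV 2 and G3-YSD 2. Their summed level was 3458 and 7479 CPM with HT-DNA (mean 5469 ± 2843, SD, n = 2), 1838 and 5559 with hpRNA (3699 ± 2631) and 3659 and 7751 with cGAMP (5705 ± 2894). It was 14020 and 2029 CPM in G3-YSD (8022 ± 8475) and 13970 and 1968 CPM in HSV (7967 ± 8484), against 1800 and 6010 CPM in mock (3905 ± 2977). Each mean differed from the mean of mock by less than the SD of its own pair. Transfections were made in duplicate, and nothing says that a pair came from separate cultures, so p-values measure the spread between these libraries, part of which may be technical. In bulk RNA, a share of cells that responds and a level per cell cannot be told apart.

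**Figure D1:**
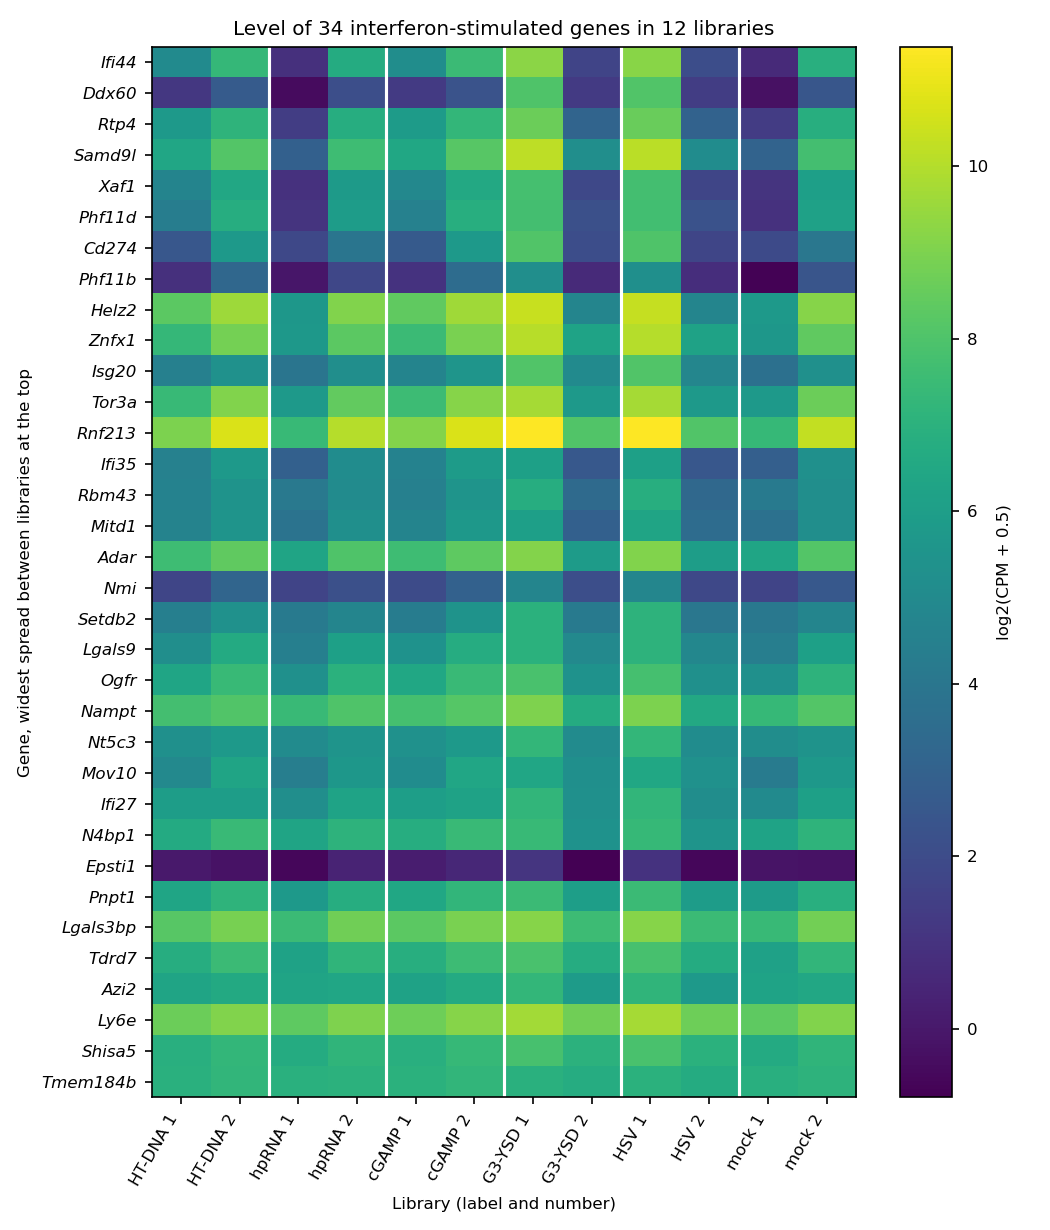
Level of the 34 genes in the 12 libraries as log2(CPM + 0.5), with genes ordered by spread and white lines between labels. The columns of G3-YSD 1 and HSV 1 are the brightest for 31 of 34 genes, and in the 6 genes at the top hpRNA 1 and mock 1 are the darkest.

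G3-YSD 1 and HSV 1 were the 2 highest libraries for 31 of the 34 genes, which holds for 24.7% of the 16840 genes tested. The exceptions were Tmem184b, N4bp1 and Mov10, and HT-DNA 2 and cGAMP 2 were the 2 highest for the first 2 of these. HT-DNA 2 and cGAMP 2 took ranks 3 and 4 for 27 of 34 genes, against 5.67% of all genes. hpRNA 1 and mock 1 were the 2 lowest for 18 of 34, against 5.87% of all genes. G3-YSD 2 and HSV 2 were the 2 lowest for 10 (Epsti1, Ifi35, Adar, Helz2, Mitd1, Azi2, Tmem184b, N4bp1, Rbm43 and Nampt), against 23.2% of all genes.

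Counted against the basal level after adding 0.5 CPM to both, 32 genes were at least 2-fold higher in G3-YSD 1 and 32 in HSV 1, all but Azi2 and Tmem184b. At this threshold there were 14 in HT-DNA 1 and 26 in HT-DNA 2, 14 in cGAMP 1 and 27 in cGAMP 2, 22 in hpRNA 2 and 23 in mock 2. The 14 of HT-DNA 1 and of cGAMP 1 carried the same names: Rnf213, Samd9l, Tor3a, Xaf1, Rtp4, Ddx60, Ifi35, Ifi44, Adar, Helz2, Znfx1, Ogfr, Phf11b and Phf11d. Only 6 genes passed in G3-YSD 2 and 7 in HSV 2, and 5 of them passed in both: Samd9l, Rtp4, Ddx60, Phf11b and Phf11d. Over all tested genes, 16.6% passed in G3-YSD 1 and 10.3% in G3-YSD 2, 16.2% in HSV 1 and 10.5% in HSV 2, and 1.0% to 2.56% in HT-DNA, cGAMP, hpRNA 2 and mock 2. None of the 34 was 2-fold below basal in any library.

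The 34 genes spread over a wide range of basal levels, from 86.6 CPM per kb for Ly6e to 0.0328 for Ddx60. Their log2 spread, the highest over the lowest of 12 libraries after adding 0.5 CPM, had a median of 3.17, against 1.13 over all tested genes and 0.877 over the 10279 with a basal level of at least 5 CPM. In 12 genes the log2 spread was over 4, in 14 it was 2 to 4, in 7 it was 1 to 2, and in Tmem184b it was 0.558. Over all tested genes the share above 4 was 2.2%. Rnf213, at 3.99, lay just below that threshold and Tor3a, at 4.03, just above it. The added 0.5 CPM lowers the spread of the scarcest genes, such as Epsti1. hpRNA 1 and mock 1, which set the basal level, also enter the spread, so basal level and spread are not independent.

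**Figure D2:**
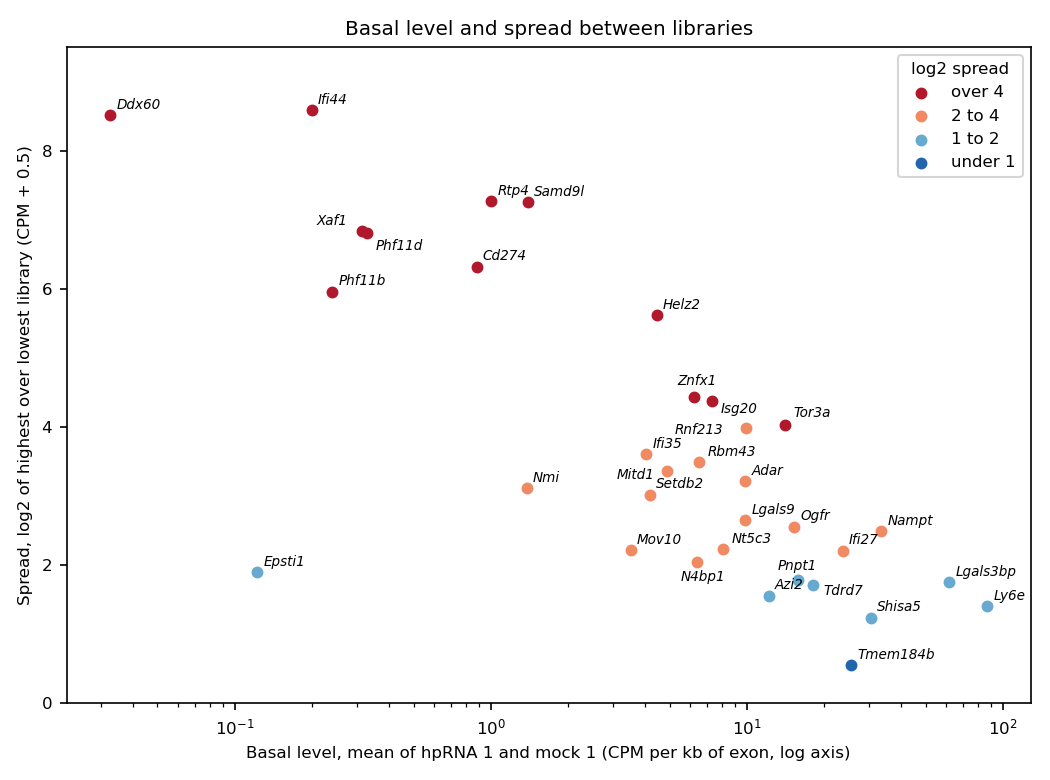
Basal level, the mean of hpRNA 1 and mock 1 in CPM per kb of exon on a log axis, against log2 spread between the highest and lowest of 12 libraries, 1 point per gene and coloured by spread. Genes with a spread over 4 lie at 14.1 CPM per kb (Tor3a) or lower, and the 8 genes with the highest basal level have a spread between 0.558 (Tmem184b) and 2.49 (Nampt). hpRNA 1 and mock 1 also enter the spread and are the 2 lowest libraries for 18 of 34 genes, so the axes are not independent.

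The 8 genes with the highest basal level per kb were expressed in every library and varied 1.47-fold to 5.64-fold between the lowest and the highest. Ly6e, a lipid-anchored surface protein that hinders the entry of coronaviruses, had 399 and 546 CPM with HT-DNA, 328 and 524 with hpRNA, 411 and 566 with cGAMP, 821 and 425 with G3-YSD, and 868 and 410.1 with HSV, against 328 and 530.2 in mock. Lgals3bp, a secreted glycoprotein that binds galectin 3, had 295 and 470.5 CPM with HT-DNA, 181 and 422 with hpRNA, 318 and 488 with cGAMP, 572 and 184 with G3-YSD, and 566 and 179.8 with HSV, against 169 and 438 in mock. Both were highest in G3-YSD 1 and HSV 1, and under every label the levels overlapped the range of mock. Shisa5, a membrane protein of the endoplasmic reticulum linked to p53-dependent apoptosis, had 116 and 153 CPM with HT-DNA, 102 and 143 with hpRNA, 119 and 165 with cGAMP, 227 and 129 with G3-YSD, and 234 and 125 with HSV, against 98.7 and 145 in mock. Ifi27, a small interferon-induced membrane protein, had 63.7 and 63.0 CPM with HT-DNA, 37.4 and 75.5 with hpRNA, 65.8 and 73.3 with cGAMP, 149 and 39.6 with G3-YSD, and 150.3 and 35.7 with HSV, against 32.1 and 69.8 in mock. For Ifi27, HT-DNA 1 and HT-DNA 2 had nearly the same level, while mock 2 was 2.17-fold above mock 1.

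Tdrd7, a tudor-domain protein of RNA granules, had 112 and 182 CPM with HT-DNA, 73.2 and 145 with hpRNA, 114 and 188 with cGAMP, 234 and 108 with G3-YSD, and 227 and 103 with HSV, against 70.6 and 150.1 in mock. Pnpt1, the polynucleotide phosphorylase of mitochondria, had 82.0 and 139 CPM with HT-DNA, 53.1 and 110.2 with hpRNA, 87.2 and 148 with cGAMP, 179 and 65.0 with G3-YSD, and 184 and 61.4 with HSV, against 58.4 and 116 in mock. In both, G3-YSD 1 and HSV 1 were highest and mock 1 and hpRNA 1 lowest. Nampt, the rate-limiting enzyme of NAD salvage, had 215 and 267 CPM with HT-DNA, 173 and 262 with hpRNA, 218 and 290.1 with cGAMP, 522 and 102 with G3-YSD, and 504 and 92.6 with HSV, against 165 and 275 in mock. Its lowest libraries were HSV 2 and G3-YSD 2, at 0.56 and 0.619 of mock 1, and HT-DNA 2 and cGAMP 2 had 0.972 and 1.05 times the level of mock 2.

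Tmem184b, a membrane protein that spans the membrane several times, was the steadiest member and had 123 and 151 CPM with HT-DNA, 122 and 132 with hpRNA, 127 and 151 with cGAMP, 123 and 107 with G3-YSD, and 127 and 102 with HSV, against 118 and 135 in mock. HT-DNA 2 and cGAMP 2 were highest, and the whole range was 1.47-fold. Azi2, an adaptor of the kinase Tbk1 in the pathway to interferon, was the other gene that stayed below 2-fold over basal and had 79.0 and 95.9 CPM with HT-DNA, 80.0 and 84.4 with hpRNA, 75.0 and 99.1 with cGAMP, 155 and 59.0 with G3-YSD, and 145 and 52.4 with HSV, against 77.0 and 91.3 in mock. In Azi2 the libraries of HT-DNA, hpRNA, cGAMP and mock lay between 75.0 and 99.1 CPM, with G3-YSD 1 and HSV 1 above them and G3-YSD 2 and HSV 2 below.

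**Figure D3:**
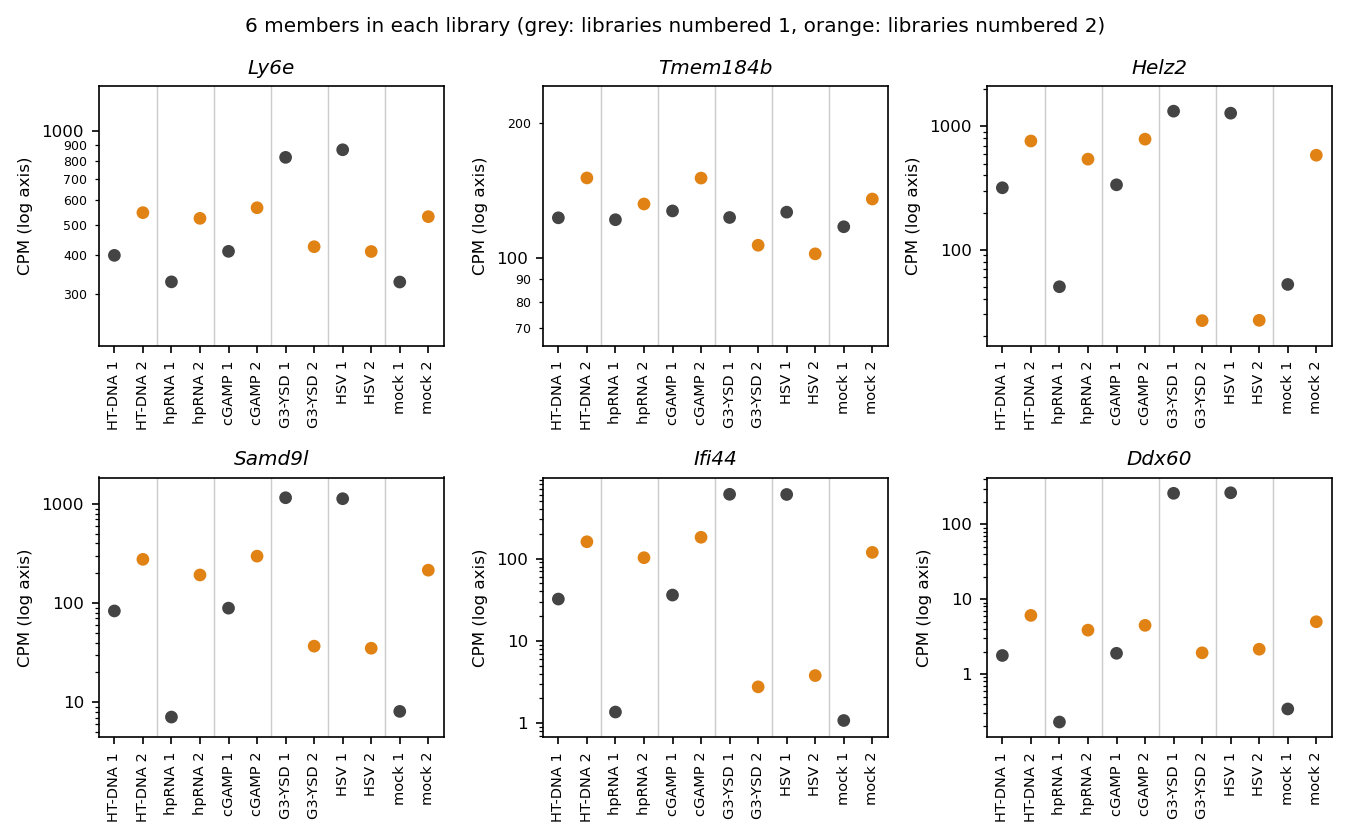
Level of Ly6e, Tmem184b, Helz2, Samd9l, Ifi44 and Ddx60 in each of the 12 libraries, in CPM on log axes of different range, 1 point per library, grey for libraries numbered 1 and orange for those numbered 2. In G3-YSD and HSV the grey point is the higher, and in the other labels the orange one is. For Ddx60 only G3-YSD 1 and HSV 1 lie above 6.08 CPM.

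The 6 genes with the widest spread were at or below 7.57 CPM at the basal level and at 209.9 CPM or more in both G3-YSD 1 and HSV 1. Ifi44, an interferon-induced cytoplasmic protein, had 32.3 and 161 CPM with HT-DNA, 1.37 and 103 with hpRNA, 36.1 and 182 with cGAMP, 606 and 2.77 with G3-YSD, and 603 and 3.8 with HSV, against 1.08 and 119 in mock. It covered 561-fold, and mock 2 alone was 110-fold above mock 1. Rtp4, a Golgi chaperone of receptors, had 52.7 and 140.3 CPM with HT-DNA, 2.17 and 111 with hpRNA, 59.1 and 153 with cGAMP, 400.4 and 8.23 with G3-YSD, and 383 and 7.6 with HSV, against 2.1 and 116 in mock. Samd9l, which restricts cell growth and poxviruses, had 83.3 and 276 CPM with HT-DNA, 7.08 and 192 with hpRNA, 88.9 and 297 with cGAMP, 1156 and 36.8 with G3-YSD, and 1130 and 35.0 with HSV, against 8.07 and 215 in mock. In Rtp4 and Samd9l, G3-YSD 2 and HSV 2 stood 3.61-fold to 4.55-fold above mock 1, while they lay below every HT-DNA and cGAMP library.

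Xaf1, which binds the apoptosis inhibitor Xiap, had 25.2 and 89.2 CPM with HT-DNA, 1.43 and 57.2 with hpRNA, 28.7 and 92.2 with cGAMP, 221 and 3.08 with G3-YSD, and 212 and 2.89 with HSV, against 1.53 and 67.2 in mock. Phf11d, a zinc-finger protein of the PHD type, had 20.3 and 109.9 CPM with HT-DNA, 1.54 and 61.6 with hpRNA, 22.9 and 113 with cGAMP, 215 and 4.08 with G3-YSD, and 209.9 and 4.38 with HSV, against 1.42 and 70.6 in mock. Mock 2 was 43.8-fold above mock 1 for Xaf1 and 49.7-fold for Phf11d, and the levels in HT-DNA 1 and cGAMP 1 fell between those of mock 1 and mock 2.

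Ddx60, an RNA helicase described as a cofactor of RIG-I-like sensors, differed from the rest in the size of its step to G3-YSD 1 and HSV 1. Its level was 1.77 and 6.08 CPM with HT-DNA, 0.228 and 3.86 with hpRNA, 1.89 and 4.48 with cGAMP, 261 and 1.92 with G3-YSD, and 265 and 2.15 with HSV, against 0.341 and 5.00 in mock. G3-YSD 1 was 42.9-fold above HT-DNA 2 and HSV 1 was 59.2-fold above cGAMP 2, where the next largest ratio of the 34 genes was 6.54-fold for G3-YSD 1 over HT-DNA 2 and 5.83-fold for HSV 1 over cGAMP 2, both for Isg20. The basal counts of Ddx60 were low, 4 in hpRNA 1 (exact Poisson 95% interval 1.09 to 10.2) and 6 in mock 1 (2.2 to 13.1). These intervals cover counting error only.

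**Figure D4:**
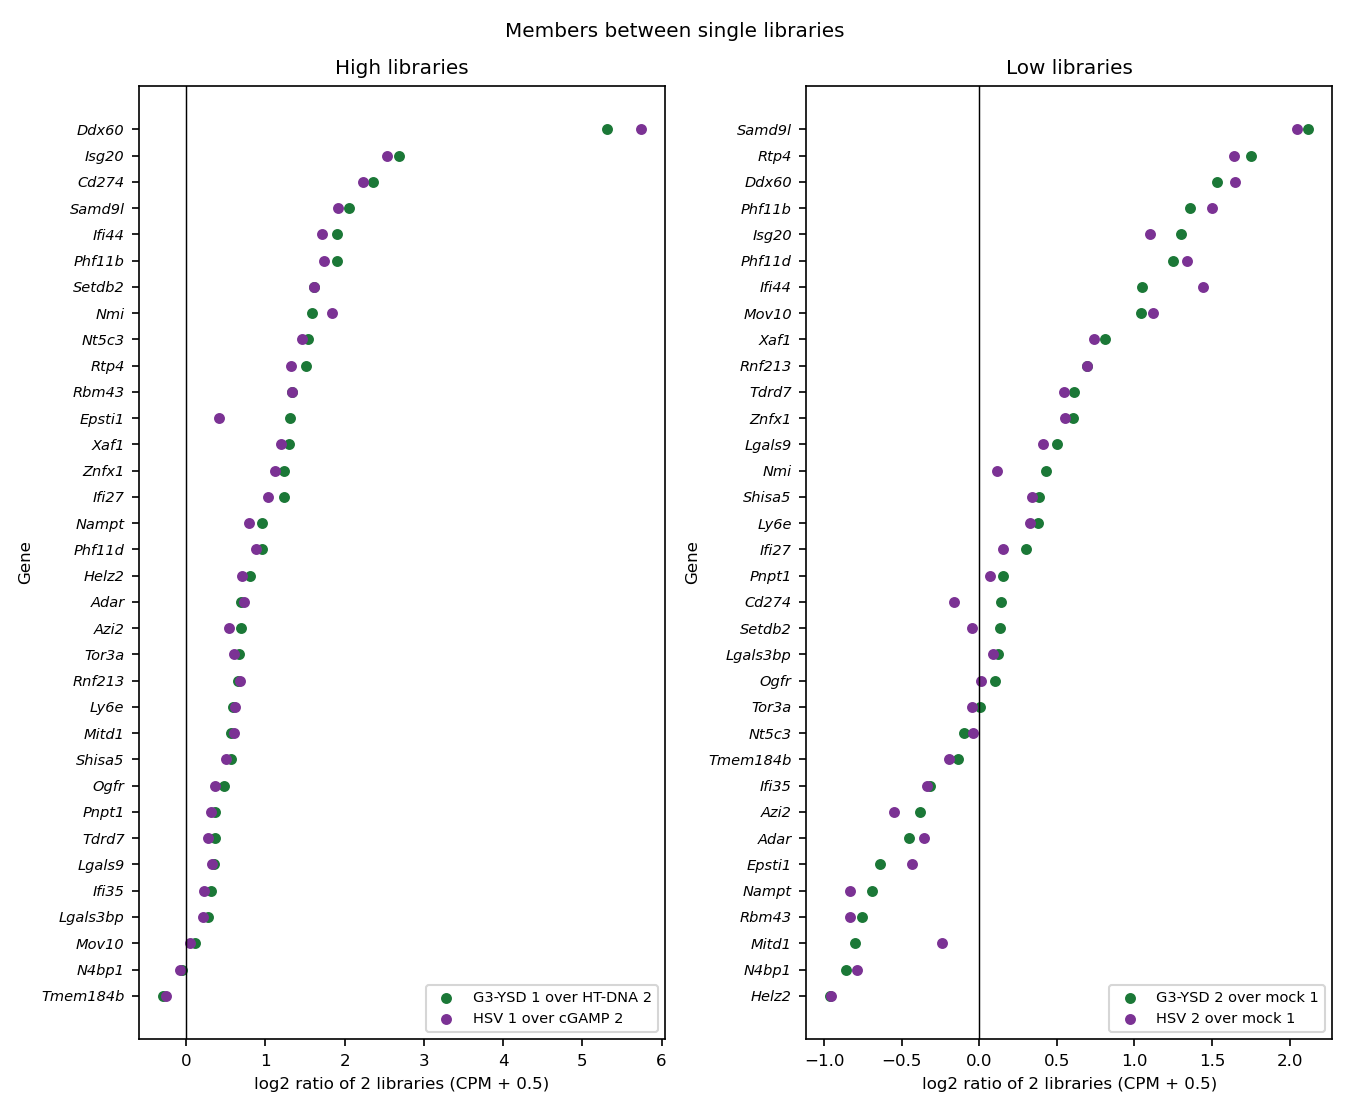
log2 ratio between single libraries for each of the 34 genes after adding 0.5 CPM, with G3-YSD 1 over HT-DNA 2 and HSV 1 over cGAMP 2 on the left, and G3-YSD 2 and HSV 2 over mock 1 on the right. Ddx60 stands apart on the left at 5.31 and 5.74, and on the right values run from -0.962 (Helz2) to 2.12 (Samd9l) for G3-YSD 2.

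Among the helicases and nucleases, Helz2, a zinc-finger helicase that acts as a nuclear receptor coactivator, lay highest in G3-YSD 1 and HSV 1 and lowest in G3-YSD 2 and HSV 2. It had 318 and 762 CPM with HT-DNA, 50.1 and 543 with hpRNA, 336 and 788 with cGAMP, 1330 and 26.6 with G3-YSD, and 1281 and 26.8 with HSV, against 52.3 and 584 in mock. G3-YSD 2 and HSV 2 had 0.509 and 0.512 of the level in mock 1, while G3-YSD 1 and HSV 1 had 2.28 and 2.19 times that of mock 2. Znfx1, a helicase reported to sense double-stranded RNA, had 159 and 458 CPM with HT-DNA, 52.1 and 314 with hpRNA, 179 and 480.3 with cGAMP, 1083 and 76.0 with G3-YSD, and 1044 and 73.4 with HSV, against 49.9 and 339.6 in mock. Mov10, an RNA helicase that restrains retrotransposons, had 29.9 and 79.0 CPM with HT-DNA, 20.8 and 49.2 with hpRNA, 34.6 and 85.6 with cGAMP, 85.5 and 38.7 with G3-YSD, and 88.7 and 41.1 with HSV, against 18.6 and 51.1 in mock. Mov10 was unlike Helz2 in G3-YSD 2 and HSV 2, where it was 2.08-fold and 2.21-fold above mock 1, and in G3-YSD 1 it was only 1.08-fold above HT-DNA 2.

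Isg20, an exonuclease that degrades single-stranded RNA, had 22.6 and 41.3 CPM with HT-DNA, 14.6 and 37.0 with hpRNA, 25.5 and 46.6 with cGAMP, 270.3 and 31.7 with G3-YSD, and 272 and 27.6 with HSV, against 12.6 and 39.0 in mock. The level in G3-YSD 1 and HSV 1 was 6.92-fold and 6.96-fold above mock 2, whereas HT-DNA 2 and cGAMP 2 lay 1.06-fold and 1.19-fold above it. N4bp1, a ribonuclease that dampens NF-kB signalling, had 101 and 176 CPM with HT-DNA, 78.6 and 136 with hpRNA, 109 and 172 with cGAMP, 169.5 and 42.5 with G3-YSD, and 164 and 44.8 with HSV, against 77.7 and 141 in mock. It was the only member besides Tmem184b with a lower level in G3-YSD 1 than in HT-DNA 2 and in HSV 1 than in cGAMP 2. Adar, which edits adenosine to inosine in double-stranded RNA, had 191 and 339.6 CPM with HT-DNA, 79.5 and 260.5 with hpRNA, 192 and 327 with cGAMP, 549 and 58.7 with G3-YSD, and 541 and 62.8 with HSV, against 80.5 and 278 in mock. Rbm43, an RNA-binding protein, was at 9.58 to 113 CPM, with HSV 2 lowest and HSV 1 highest.

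The giant ubiquitin ligase Rnf213 gave the most counts of the set in G3-YSD 1 and HSV 1, with 18.5% of the summed level in G3-YSD 1 and 9.26% in mock 1. It had 506 and 1653 CPM with HT-DNA, 168 and 1050 with hpRNA, 548 and 1664 with cGAMP, 2598 and 270 with G3-YSD, and 2665 and 270.2 with HSV, against 167 and 1213 in mock. Tor3a, an ATPase of the torsin family in the endoplasmic reticulum, had 169 and 542 CPM with HT-DNA, 55.3 and 347 with hpRNA, 188 and 568 with cGAMP, 862 and 54.7 with G3-YSD, and 868 and 52.6 with HSV, against 54.5 and 406 in mock. Rnf213 and Tor3a moved by similar factors between mock 2 and mock 1 (7.28-fold and 7.45-fold), and they parted in G3-YSD 2, at 1.62-fold and 1.00-fold of mock 1. Ogfr, the opioid growth factor receptor, was at 39.5 to 236 CPM over the 12 libraries. Mitd1, which takes part in the last step of cell division, was at 7.23 to 79.3 CPM.

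Of the surface and secreted proteins, Cd274, the ligand PD-L1 of the inhibitory receptor PD-1 on T cells, had 5.26 and 52.3 CPM with HT-DNA, 3.08 and 14.8 with hpRNA, 5.9 and 55.8 with cGAMP, 269.6 and 3.69 with G3-YSD, and 264 and 2.89 with HSV, against 3.3 and 15.8 in mock. HT-DNA 2 and cGAMP 2 stood 3.31-fold and 3.53-fold above mock 2, the largest such ratios of the 34 genes. Lgals9, which codes for galectin 9, a ligand of Tim-3, had 37.4 and 99.4 CPM with HT-DNA, 21.3 and 69.8 with hpRNA, 41.9 and 106 with cGAMP, 128 and 29.7 with G3-YSD, and 133 and 27.8 with HSV, against 20.8 and 70.4 in mock. Its lowest libraries were mock 1 and hpRNA 1.

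The signalling partners Nmi and Ifi35, which bind each other, differed in the order of their libraries. Nmi had 2.81 and 8.41 CPM with HT-DNA, 2.74 and 3.98 with hpRNA, 3.46 and 7.33 with cGAMP, 26.3 and 3.92 with G3-YSD, and 27.6 and 3.06 with HSV, against 2.79 and 5.31 in mock. Ifi35 had 22.9 and 55.6 CPM with HT-DNA, 7.13 and 34.3 with hpRNA, 23.6 and 59.6 with cGAMP, 69.2 and 5.38 with G3-YSD, and 69.9 and 5.29 with HSV, against 6.82 and 39.9 in mock. HT-DNA 1 and cGAMP 1 were 3.35-fold and 3.46-fold above mock 1 for Ifi35, and 1.01-fold and 1.24-fold for Nmi. Nt5c3, a pyrimidine nucleotidase, had 39.7 and 53.1 CPM with HT-DNA, 33.5 and 45.0 with hpRNA, 40.2 and 55.2 with cGAMP, 156 and 32.8 with G3-YSD, and 153 and 34.2 with HSV, against 35.2 and 43.4 in mock. Outside G3-YSD 1 and HSV 1, Nt5c3 stayed between 32.8 and 55.2 CPM.

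The chromatin proteins Phf11b, Phf11d and Setdb2 lie in a row on the minus strand of chromosome 14 (59320964 to 59440884, mm10), with gaps of 6.05 kb and 36.5 kb. Setdb2, a histone methyltransferase, had 21.7 and 40.5 CPM with HT-DNA, 17.4 and 26.8 with hpRNA, 19.4 and 42.8 with cGAMP, 126 and 18.1 with G3-YSD, and 133 and 15.9 with HSV, against 16.5 and 26.5 in mock. Phf11b had 2 counts in mock 1 (exact Poisson 95% interval 0.242 to 7.22) and 8 in hpRNA 1, and had 1.35 and 9.27 CPM with HT-DNA, 0.457 and 3.02 with hpRNA, 1.46 and 10.9 with cGAMP, 36.3 and 1.08 with G3-YSD, and 37.7 and 1.24 with HSV, against 0.114 and 4.82 in mock. Neighbouring genes thus differed in spread, at 5.96 for Phf11b, 6.81 for Phf11d and 3.02 for Setdb2 on the log2 scale after adding 0.5 CPM. Without the addition Phf11b covered 332-fold, Phf11d 151-fold and Setdb2 8.34-fold, so the order of the Phf11 genes depends on it. Phf11b and Phf11d belong to a family of near-identical genes, and reads may be shared among them. Nmi and Rbm43, a further pair of neighbours with a gap of 13.3 kb on chromosome 2, had spreads of 3.12 and 3.49.

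Epsti1, an interferon-induced gene first found in stromal cells of breast tumours, was too scarce to describe. Its highest level was 1.65 CPM, and 6 libraries had fewer than 10 counts. Some members overlap other genes, and the strand setting of the counting is not given in the sources used here. Rtp4 overlaps Masp1 on the opposite strand, and Znfx1 overlaps Zfas1, with highest levels of 199 and 170 CPM for Masp1 and Zfas1. How reads were divided there was not tested.

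The comparisons of each label with mock ask what each agent changes. HT-DNA against mock had a median log2 fold change of 0.53 over the 34 genes, with 34 of 34 above 0, against a median of -0.00099 and 48.5% above 0 over all tested genes. The fold changes ran from 0.06 to 1.59 with a median standard error of 1.17. edgeR's quasi-likelihood test called 0 of the 34 genes at an adjusted p under 0.05, with 0 at an unadjusted p under 0.05. DESeq2 called 0, and edgeR called 0% of all genes. By edgeR, 62 of the 16840 genes tested had an unadjusted p under 0.05. For cGAMP against mock the median was 0.56, with 34 of 34 above 0, against 49.9% of all tested genes. Again edgeR called 0 of the 34, with 0 at an unadjusted p under 0.05, DESeq2 called 0, and edgeR called 0% of all genes. Of all genes tested, 99 had an unadjusted p under 0.05 by edgeR. The cGAMP libraries lay above both mock libraries without overlap for Epsti1 alone, 1 of 34, where 14.9% of all genes did so and 15.1% lay below both. In the other comparisons 0 of 34 genes were free of overlap in either direction, where the share of all genes above and below mock was 13.8% and 14% for HT-DNA, 10.5% and 10.3% for hpRNA, 24.4% and 22.7% for G3-YSD, and 24.7% and 22.8% for HSV. Leaving out mock 1 gave a median of -0.05 for cGAMP, and leaving out mock 2 gave 1.64. For HT-DNA against mock the median was 1.51 without mock 2 and -0.11 without HT-DNA 2.

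hpRNA against mock gave a median log2 fold change of -0.06, with 27 of 34 genes below 0. Over all tested genes the median was 0 and 49.0% were above 0. In the fit of all 12 libraries edgeR called 0 members, 0 passed an unadjusted p under 0.05, DESeq2 called 0, and edgeR called 0% of all genes. Of all genes tested, 58 had an unadjusted p under 0.05 by edgeR. In single libraries, hpRNA 1 was above mock 1 for 23 of 34 genes and hpRNA 2 was above mock 2 for 5. Leaving out hpRNA 2 gave a median of -0.96 and leaving out mock 2 gave 1.02.

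G3-YSD against mock had a median log2 fold change of 1.02 over the 34 genes and HSV against mock one of 1.02, against 0.11 and 0.10 over all genes. In each, 32 of 34 were above 0, against 56.7% of all genes in G3-YSD and 56.3% in HSV. These comparisons share the mock libraries. The largest change in each was that of Ddx60, named after its values were seen, with 5.62 and a standard error of 2.66 in G3-YSD and 5.65 with 2.66 in HSV. edgeR called 0 members in G3-YSD against mock and 0 in HSV against mock. The lowest adjusted p of a member was 0.235 in G3-YSD and 0.233 in HSV. In both, 0 of the 34 had an unadjusted p under 0.05. Of the 16840 genes tested, 4072 in G3-YSD and 4092 in HSV did. Over all genes edgeR called 5.16% in G3-YSD and 5.2% in HSV. DESeq2 called 0 members in both, where it called 2208 and 2272 genes in all. At an unadjusted p under 0.05 it had 2 members in each. Its share of all genes at that p is not given here. Without the filter on low counts edgeR called Ddx60 and Isg20 in both comparisons. The adjusted p was 0.00777 and 0.0155 for G3-YSD against mock and 0.00779 and 0.016 for HSV against mock. That fit also called more genes in all than the main fit, with counts given in the closing section. The number of genes it tested is not given here, so these calls show nothing particular to the members. Leaving out G3-YSD 1 turned the median to -1.16 and leaving out HSV 1 to -1.16. G3-YSD 2 and HSV 2 lay below mock 2 for 34 of 34 genes, while 50.3% and 50.1% of all tested genes lay above it.

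**Figure D5:**
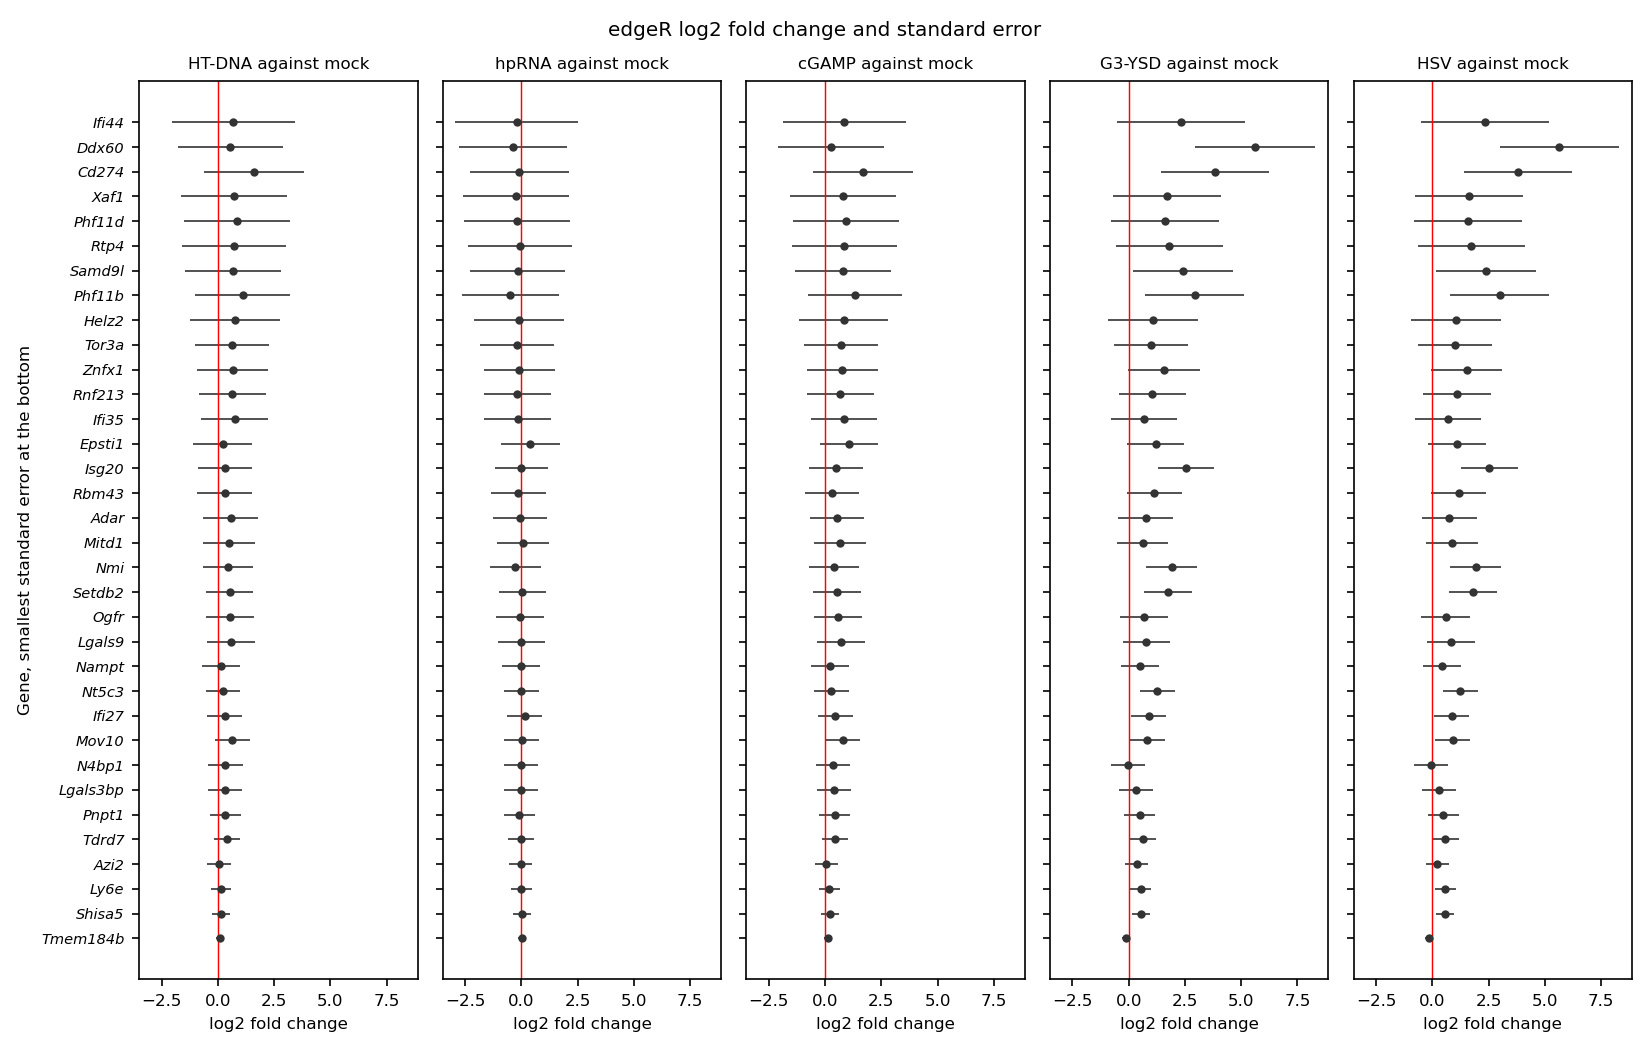
edgeR log2 fold change against mock for the 34 genes, points with 1 standard error as bars, 1 panel per comparison, genes ordered by standard error with the smallest at the bottom. Most bars cross 0, and those of Tmem184b, with a standard error of 0.18, are the shortest.

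For Rnf213 the log2 fold change was 0.65 in HT-DNA, -0.18 in hpRNA, 0.68 in cGAMP, 1.06 in G3-YSD and 1.09 in HSV, each with a standard error between 1.49 and 1.51. Rtp4 had 0.71, -0.05, 0.85, 1.80 and 1.73 in the same order, with standard errors between 2.31 and 2.38. Nampt lay between -0.02 in hpRNA and 0.50 in G3-YSD, with a standard error of 0.84. Tmem184b, whose standard error was 0.18, lay between -0.14 in HSV and 0.14 in cGAMP, and the sign in HSV turned under upper quartile scaling, at 0.000105 on the log2 scale. No change of these 4 genes passed the test in the fit of all 12 libraries. A lack of calls at such standard errors does not show a lack of response.

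Ifnb1 and Irf7, which act upstream of these genes, also varied between the libraries. Ifnb1, which codes for interferon beta, had 13 and 183 counts with HT-DNA, 0 and 11 with hpRNA, 7 and 142 with cGAMP, 450 and 56 with G3-YSD, and 390 and 50 with HSV, against 0 and 30 in mock. Irf7, the factor that amplifies interferon production, was at 30.7 and 125 CPM with HT-DNA, 2.68 and 83.6 with hpRNA, 37.1 and 129 with cGAMP, 239.7 and 3.08 with G3-YSD, and 247.5 and 2.31 with HSV, against 3.07 and 84.6 in mock. In G3-YSD 2 and HSV 2 Irf7 thus stood near mock 1, while Ifnb1 had more counts there than in mock 2. Of 14 interferon signalling genes and 34 main effector genes tested, edgeR called 0 in each of the 5 comparisons. Of 14 NF-kB genes tested it called 1 in G3-YSD and 1 in HSV, in each case Nfkbia, the inhibitor that NF-kB itself induces. Over all genes edgeR called 5.16% in G3-YSD and 5.2% in HSV. Its log2 fold change was 1.63 with a standard error of 0.19 in G3-YSD and 1.56 with 0.19 in HSV (adjusted p = 0.00835 and 0.00995). Without mock 1, without mock 2 and in the 4 libraries of the comparison alone, 0 genes were called in G3-YSD and 0 in HSV, so that this call was lost too.

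The 34 genes did not all lie on 1 side of mock 1 in G3-YSD 2 and HSV 2. In G3-YSD 2, 23 of 34 genes were above mock 1 and 11 below, and in HSV 2, 20 were above and 14 below, where 51.3% of all tested genes were above mock 1 in each. After adding 0.5 CPM, Samd9l was the highest above mock 1, at log2 ratios of 2.12 in G3-YSD 2 and 2.05 in HSV 2. Rtp4 followed at 1.75 and 1.64 and Ddx60 at 1.53 and 1.65. Without the addition, Samd9l was at 4.55-fold and 4.34-fold and Rtp4 at 3.91-fold and 3.61-fold. Low counts in mock 1 limit the ratios of Ddx60 (5.64-fold and 6.29-fold, 6 counts) and Phf11b (9.47-fold and 10.9-fold, 2 counts). Helz2, N4bp1, Rbm43 and Nampt had 0.509 to 0.619 of mock 1 in G3-YSD 2 and HSV 2. In HSV 2, 10.9% of all tested genes were 2-fold below basal. The fibroblast marker sum was highest in G3-YSD 2 and HSV 2, as given above, and its part in these values was not tested.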

How the data were processed

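RNA sequencing covered 12 libraries of mouse L929 cells. Per gene, the authors deposited raw counts in 1 file a library, made with HISAT2 and HTSeq on mm10, per the submitters' processing notes, which give no versions. The strand setting and the annotation release were not stated there. Of 54532 genes, 54495 matched GENCODE M21, whose assembly is the same and which supplied symbols, exon lengths and positions.

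R 4.3.3 and edgeR 4.0.16 were used. edgeR's default filter on low counts kept 16840 genes, TMM scaled the libraries, and 1 quasi-likelihood fit took all 12 of them with a term for each label. It had 6 residual degrees of freedom and an estimated biological coefficient of variation of 0.397, shared by labels with narrow and with wide pairs. Calls needed an adjusted p (Benjamini-Hochberg, over all tested genes) under 0.05. DESeq2 1.42.0, other scalings, no filter, other sets of libraries, a replicate block and leaving out each library were the alternatives. A run of the fit on simulated data is not reported here and carries no weight in these results. CPM and CPM per kb were computed from the counts. Library totals were 12650790 to 18912400, and counting intervals cover counting error only.

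Every library is given for the 8 genes highest in basal level per kb and the 6 with the widest and the 6 with the narrowest spread, and fold changes for Rnf213, Rtp4, Nampt and Tmem184b. Other genes described library by library were chosen after their values were seen. The 34 genes and all lists were chosen with earlier results of these data known. Some genes of the lists are not reported here.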

Additional observations from a re-analysis of the deposited data

How the results depend on the processing

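The count of members called stayed at 0 in all 5 comparisons under other scalings, DESeq2, the 4 libraries of a comparison alone and leaving out each library, and in the 3 comparisons that the 8 libraries without G3-YSD and HSV allow. Without the filter it was 2 in G3-YSD and 2 in HSV, in a fit whose calls over all genes are given below. With the replicate number as a block it was 3 for hpRNA in its 4 libraries, with log2 fold changes of -0.13 for Rnf213, -0.17 for Samd9l and -0.16 for Tor3a, and 1 for cGAMP in 8 libraries (Mov10), and it changed no other call except under the crossed pairing. Same-numbered deviations correlated at 0.481 with HT-DNA, 0.786 with hpRNA, 0.465 with cGAMP, -0.413 with G3-YSD and -0.417 with HSV, and the labels give the number no meaning. A crossed pairing, chosen after seeing the data, called 10 members in G3-YSD and 9 in HSV. Its calls over all genes are not given here, so these counts show nothing particular to the members. The cause of these differences was not tested.

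Over all genes, edgeR called 869 in G3-YSD and 876 in HSV, against 2208 and 2272 by DESeq2, 1894 and 1892 without the filter, 0 and 0 in the 4 libraries alone, with or without the block, 0 and 0 without mock 1 or without mock 2, and 0 to 1281 and 0 to 1263 over all left-out libraries. Leaving out G3-YSD 2 gave 77 in G3-YSD, leaving out HSV 2 gave 130 in HSV, and leaving out any HT-DNA, hpRNA or cGAMP library gave 199 to 361. For the other labels edgeR called 0, against 1 by DESeq2 for HT-DNA and 1 for hpRNA. With the block, 4 libraries gave 6 for HT-DNA, 182 for hpRNA and 6 for cGAMP, and 8 libraries gave 14 for HT-DNA and 23 for cGAMP.

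Of 300 log2 values with 1 library left out, 26 changed sign. Over these, the log2 fold change of Rnf213 against mock spanned -0.45 to 2.71 with HT-DNA, -2.05 to 1.88 with hpRNA, -0.34 to 2.73 with cGAMP, -1.36 to 3.10 with G3-YSD and -1.36 to 3.15 with HSV. Likewise, the log2 fold change of Rtp4 against mock spanned -0.25 to 5.53 with HT-DNA, -4.76 to 4.75 with hpRNA, -0.13 to 5.66 with cGAMP, -2.85 to 6.59 with G3-YSD and -2.96 to 6.54 with HSV. Likewise, the log2 fold change of Nampt against mock spanned -0.18 to 0.56 with HT-DNA, -0.35 to 0.40 with hpRNA, -0.12 to 0.63 with cGAMP, -1.12 to 1.23 with G3-YSD and -1.26 to 1.19 with HSV. Likewise, the log2 fold change of Tmem184b against mock spanned -0.042 to 0.27 with HT-DNA and -0.097 to 0.12 with hpRNA. A library left alone under its label is assumed to vary like the others. Of 215 values under other settings, 1 changed sign, that of Tmem184b in HSV with upper quartile scaling (0.000105). With 2 libraries a label, changes smaller than or near the standard errors given cannot be told from the spread. Larger ones may not pass either: Ddx60 in G3-YSD, at 5.62 with a standard error of 2.66, was not called in the main fit. Counts under 10 in a library limit Ddx60, Epsti1 and Phf11b at the basal level.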
